A study of Homo sapiens with 28 samples.

Results

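The extracellular matrix and mesenchymal genes described here are 32 genes given by symbol, and chosen with earlier results of these data known, from fibrillar collagens to intermediate filament and membrane proteins of mesenchymal cells. They were found in the deposited human exon array values as 33 transcript clusters annotated to 1 gene each (FN1 has 2) and 935 probesets, of 22011 clusters, 14220 distinct named genes and 287329 probesets. A transcript cluster is the array's unit for a gene, and a probeset is a small group of probes for a part of an exon. A further 2 clusters that carry the symbol of COL1A2 or TIMP3 together with that of another gene were not used. All members were kept whatever their level, but POSTN, LUM and DCN had means over all arrays below the 25th percentile of cluster means (4.58), so little signal stands behind their values.

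RNA of established human pluripotent lines was measured on 14 arrays, each summarised once for genes and once for exons. Embryonal carcinoma (EC) lines come from germ cell tumours, and embryonic stem (ES) lines from early embryos. The first group was the EC lines NTERA2, 2102Ep and 833KE on feeders (n = 3), that is, on mouse embryo fibroblasts stopped from dividing with mitomycin C, in knock-out DMEM containing 10% serum replacement and FGF at 4 ng/ml. The second was 5 EC lines on plastic, namely those 3 and also NCCIT and TERA1 (n = 5), in DMEM rich in glucose with 10% FCS. The third was the ES lines H9, H14, Shef3, Shef5, Shef6 and Shef7 (n = 6), grown on the same feeders and medium as the first. All cells of all 3 groups had been sorted by flow cytometry for the surface antigen SSEA3. The labels name no alleles or ages and 1 array for each line and condition, so the spread within a group is the spread between lines.

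Fibrillar collagens of types I, III and V form the tensile fibres of connective tissue, collagen VI forms beaded filaments around cells, and glycoproteins such as fibronectin link fibres to integrins on the cell surface. Enzymes and their inhibitors cross-link or cut this network, and secreted proteins of the CCN and IGFBP families act on cells within it. In pluripotent cultures these genes are commonly read as signs of mesenchymal character or of matrix made by the cells themselves, while feeder fibroblasts are rich producers of the same proteins. All levels and differences below are on the log2 scale of the deposited values, so 1 unit is a doubling, and levels are compared only within a cluster.

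Pairs of arrays correlated across clusters with r from 0.9315 to 0.9836, and array medians lay between 6.19 and 6.39. The labels carry array codes, of which 4 are at or below 13 (NTERA2 and 2102Ep on feeders, and the ES lines H14 and Shef5; called earlier-coded) and 10 are at or above 17 (later-coded). The labels do not say what the codes stand for. The 8 measured pluripotency markers, of 12 listed, had mean levels of 10.20 to 10.93 in EC on feeders, 10.14 to 11.34 in EC on plastic and 9.99 to 11.09 in ES. Among them ZFP42 was uneven, at 3.41 in Shef3 and 4.22 in NTERA2 on plastic, against 7.81 to 11.32 in the other arrays. POU5F1, NANOG, SOX2 and TDGF1 were not among the 8. Over all arrays, probesets of NANOG stood at 7.34 to 12.85, of SOX2 at 8.63 to 11.94 and of POU5F1 at 1.67 to 10.11. The 10 measured fibroblast markers outside the member list, 4 of them below the 25th percentile of cluster means, had mean levels of 5.22 to 5.76 in EC on feeders, 4.60 to 5.35 in EC on plastic and 4.91 to 5.23 in ES. Of these markers 4 also stand in a pathway list used below, and COL14A1 alone was lower in EC on plastic (-1.14, limma adjusted p = 0.00107) and in EC on feeders (-0.96, adjusted p = 0.0107) against ES. Of 5 early endoderm markers, GATA6 (-0.77, limma adjusted p = 0.00599) and SOX17 (-0.65, adjusted p = 0.0273) were lower in EC on plastic against ES, and none of 6 markers of endothelium and blood passed. The array probes are human, and how far RNA of the mouse feeder cells binds them was not tested.

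The members varied more between arrays than most clusters did. Their median range over the 14 arrays was 2.26, against 1.34 over all clusters. MMP2, a gelatin-cutting metalloproteinase, had the widest range (5.90), with 10.64 in NTERA2 on feeders and 4.75 in NCCIT. ANXA1, a calcium-dependent membrane-binding protein, ranged over 5.35. It stood at 5.93 in NTERA2, 6.72 in 2102Ep and 9.13 in 833KE on feeders, at 4.25 in NCCIT, 6.58 in 2102Ep, 8.96 in 833KE, 9.31 in TERA1 and 3.96 in NTERA2 on plastic, and at 5.72 to 7.16 in ES. The 833KE and 2102Ep pairs were close, while NTERA2 was 1.97 higher on feeders than on plastic. Fibronectin (FN1, cluster 2598261) was lowest in TERA1 at 5.64 and highest in Shef5 at 10.38. NCCIT held the lowest value of the 14 arrays in 13 of the 33 clusters, and Shef5 and NTERA2 on feeders the highest in 9 each. Relative to each cluster's own mean, the median member stood 0.70 higher in Shef5, 0.44 higher in H14 and -0.43 in NCCIT.

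**Figure D1:**
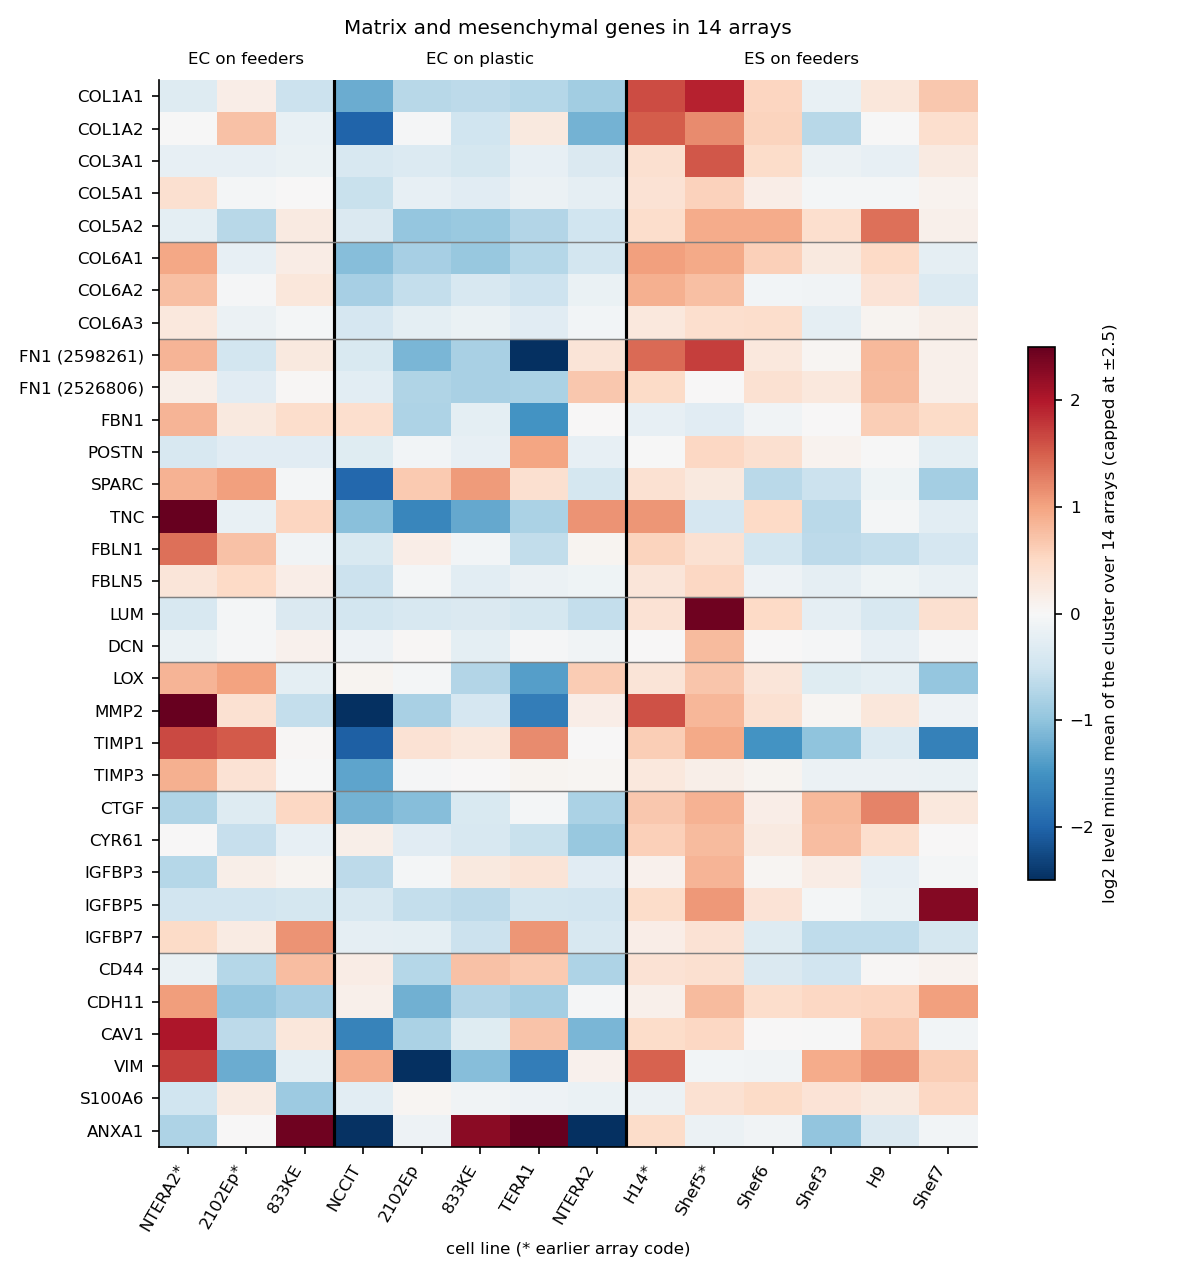
Log2 level of each of the 33 member clusters (rows, by role) in each of 14 arrays (columns) minus the mean of that cluster over all arrays, with EC on feeders left, EC on plastic in the middle and ES right, and asterisks on the 4 earlier-coded arrays. Blue prevails in EC on plastic, where NCCIT was lowest of all arrays in 13 clusters, and red in the ES lines H14 and Shef5, whose members had median deviations of 0.44 and 0.70.

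Upstream sequences of 2 genes are shown because the secreted regulators CTGF and IGFBP5 did not overlap between EC on plastic and ES, with only CTGF passing the test, and because CTGF is a textbook target of the coactivators YAP and TAZ, which act through TEAD transcription factors. They are the 250 bases before the start of the gene, read 5′ to 3′ on the strand of the gene (minus in both), from RefSeq on GRCh38.p14. Capitals mark GGAATG or its reverse complement CATTCC, the letters of a TEAD-type motif, searched on both strands. The first lies at chr6:131951373-131951622 and the second at chr2:216695550-216695799.
CTGF (now CCN2): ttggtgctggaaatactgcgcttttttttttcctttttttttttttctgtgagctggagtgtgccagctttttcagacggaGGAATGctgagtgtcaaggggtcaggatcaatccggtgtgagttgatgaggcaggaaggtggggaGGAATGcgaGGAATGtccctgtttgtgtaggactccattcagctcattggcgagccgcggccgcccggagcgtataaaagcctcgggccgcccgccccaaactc
IGFBP5: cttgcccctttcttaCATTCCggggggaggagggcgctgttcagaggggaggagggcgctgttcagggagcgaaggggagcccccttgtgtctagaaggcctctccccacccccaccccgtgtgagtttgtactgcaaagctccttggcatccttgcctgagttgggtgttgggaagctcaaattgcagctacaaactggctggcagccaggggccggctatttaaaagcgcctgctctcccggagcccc
The CTGF stretch held 3 matches and the IGFBP5 stretch 1. Of 35116 RefSeq promoter entries of the same length, 11.9% held at least 1 match and 29 (0.0826%) held 3 or more. Among the 21 members with an entry, 4 held a match, namely CTGF, IGFBP5, FBN1 and SPARC. The other members had no entry and were not searched, among them CYR61, COL1A1, COL5A2, COL6A1 and CDH11. A match is a description of these letters and not evidence of binding.

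The first comparison set EC lines on plastic against ES lines, in which cell type and growth condition differ together. In such bulk RNA, fewer cells of a kind and less RNA per cell cannot be told apart. With limma, 6 of the 33 member clusters fell and 0 rose (adjusted p under 0.05 over all clusters); over all 22011 clusters 1.34% were lower and 3.26% higher. They were the collagen genes COL1A1, COL5A2 and COL6A1, the secreted regulators CTGF and CYR61, and the cadherin CDH11. Of the 33 clusters 27 had a negative difference and the median was -0.73, against 0.0046 for all clusters. At an unadjusted p under 0.05, 19 members were lower and 0 higher, where 7.11% and 12.1% of all clusters were. With only the later-coded arrays (5 EC against 4 ES lines) 3 members fell, namely COL1A1 (-1.16), COL5A2 (-1.41) and COL6A1 (-1.09). The member median was then -0.51.

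Of the 5 fibrillar collagen clusters 2 fell, COL1A1 and COL5A2, and all 5 had a negative difference (median -1.19). COL1A1 on chromosome 17 encodes the main chain of type I collagen. Its levels (cluster 3762198) were 6.04 in NCCIT, 6.60 in 2102Ep, 6.63 in 833KE, 6.59 in TERA1 and 6.42 in NTERA2 on plastic, against a lowest level of 7.11, a median of 7.89 and a highest of 9.22 in ES. The groups did not overlap, and the 2 highest ES values were those of the earlier-coded lines H14 (8.92) and Shef5 (9.22). The means were 6.46 ± 0.24 in EC on plastic (SD, n = 5) and 8.10 ± 0.81 in ES (SD, n = 6), 3.13-fold lower (log2 difference -1.65, SE 0.34, limma adjusted p = 0.0188). With only the 3 EC lines that were also grown on feeders, COL1A1 differed by -1.55 (adjusted p = 0.0739). Among later-coded arrays alone its difference was smaller, at -1.16 (limma adjusted p = 0.0262).

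COL5A2 on chromosome 2 encodes a chain of type V collagen, which helps to set the width of type I fibres. Its levels (cluster 2591643) were 5.59 in NCCIT, 4.98 in 2102Ep, 5.01 in 833KE, 5.22 in TERA1 and 5.44 in NTERA2 on plastic, against 6.07, 6.62 and 7.31 as the lowest, median and highest level in ES. No EC line on plastic reached the lowest ES line, and here the highest ES line was the later-coded H9. COL5A2 averaged 5.25 ± 0.27 in EC on plastic (SD, n = 5) and 6.64 ± 0.45 in ES (SD, n = 6), a log2 difference of -1.40 (2.64-fold lower, SE 0.22, limma adjusted p = 0.0058). The other 3 fibrillar clusters did not pass: COL1A2, the second type I chain, differed by -1.19 (adjusted p = 0.173), COL3A1 of type III by -0.73 (0.151) and COL5A1 by -0.47 (0.0911). COL3A1 and COL5A1 had no overlap between the groups all the same, though barely so for COL3A1, at 4.91 to 5.14 in EC on plastic, against 5.14 to 6.89 in ES.

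Collagen VI is built from 3 chains, of which 1 fell, and all 3 had a negative difference. COL6A1 on chromosome 21 (cluster 3924372) stood at 7.36 in NCCIT, 7.60 in 2102Ep, 7.50 in 833KE, 7.71 in TERA1 and 7.98 in NTERA2 on plastic, against a lowest of 8.22 (Shef7), a median of 8.98 and a highest of 9.46 in ES. The groups did not overlap. COL6A1 averaged 7.63 ± 0.24 in EC on plastic (SD, n = 5) and 8.95 ± 0.46 in ES (SD, n = 6), 2.49-fold lower (log2 difference -1.32, SE 0.22, limma adjusted p = 0.00671). Its neighbour COL6A2 differed by -0.75 (adjusted p = 0.0915) and COL6A3 by -0.42 (0.118). After quantile normalisation COL6A2 passed as well (-0.85, limma adjusted p = 0.0444); that scaling gave 578 higher and 439 lower calls over all clusters, where the deposited values gave 718 and 294.

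The CCN proteins, products of rapidly induced genes, bind integrins and growth factors. CTGF on chromosome 6 (cluster 2974330), whose upstream sequence is printed above, stood at 7.31 in NCCIT, 7.44 in 2102Ep, 8.13 in 833KE, 8.45 in TERA1 and 7.71 in NTERA2 on plastic. In ES its lowest level was 8.66, its median 9.24 and its highest 9.74, above every EC line on plastic. CTGF averaged 7.81 ± 0.48 in EC on plastic (SD, n = 5) and 9.17 ± 0.40 in ES (SD, n = 6), 2.57-fold lower (log2 difference -1.36, SE 0.25, limma adjusted p = 0.0101). With the later-coded arrays alone it differed by -1.31 (adjusted p = 0.0525).

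CYR61 on chromosome 1, now named CCN1, is the closest relative of CTGF in the list. Its levels (cluster 2344888) were 7.99 in NCCIT, 7.56 in 2102Ep, 7.45 in 833KE, 7.30 in TERA1 and 6.90 in NTERA2 on plastic, against 7.87, 8.36 and 8.64 as the lowest, median and highest level in ES. Only NCCIT reached into the ES range, above Shef7. CYR61 averaged 7.44 ± 0.40 in EC on plastic (SD, n = 5) and 8.32 ± 0.31 in ES (SD, n = 6), 1.84-fold lower (log2 difference -0.88, SE 0.20, limma adjusted p = 0.0325). This call was close to the threshold: it was lost with the array code as a term (-0.77, adjusted p = 0.0901), with the later-coded arrays alone (-0.77, 0.129), and without H14 (0.0687), Shef5 (0.0677), 2102Ep (0.0627), Shef3 (0.0742), 833KE (0.0665), TERA1 (0.0698) or NTERA2 (0.0504). Over all single arrays left out the CYR61 difference was -1.02 to -0.75.

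IGFBP5 on chromosome 2, which binds insulin-like growth factors and matrix, had flat low values in EC lines. All of them lay below the 25th percentile of cluster means (4.58). Its levels (cluster 2598828) were 4.56 in NCCIT, 4.36 in 2102Ep, 4.31 in 833KE, 4.49 in TERA1 and 4.48 in NTERA2 on plastic, against 4.79, 5.34 and 7.25 (Shef7) as the lowest, median and highest level in ES. The groups did not overlap, yet the ES spread was wide and limma did not call the difference (-1.17, SE 0.37, adjusted p = 0.1). The related IGFBP3 differed by -0.24 (adjusted p = 0.621) and IGFBP7 by 0.19 (0.795).

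CDH11 on chromosome 16 encodes cadherin-11, an adhesion protein of mesenchymal cells. Its levels (cluster 3694657) were 6.56 in NCCIT, 5.22 in 2102Ep, 5.69 in 833KE, 5.58 in TERA1 and 6.39 in NTERA2 on plastic, against 6.55, 6.96 and 7.45 as the lowest, median and highest level in ES. NCCIT stood level with H14, and the other 4 EC lines lay below all ES lines. CDH11 averaged 5.89 ± 0.57 in EC on plastic (SD, n = 5) and 7.0 ± 0.31 in ES (SD, n = 6), 2.16-fold lower (log2 difference -1.11, SE 0.25, limma adjusted p = 0.0273). It lost its call when the spread came from 14 arrays (-1.11, adjusted p = 0.0860), with the later-coded arrays alone (-1.17, 0.0638), and without Shef5 (0.0574), Shef6 (0.0504), 2102Ep (0.0627), Shef3 (0.0570), 833KE (0.0657), TERA1 (0.0630) or Shef7 (0.0602); over all single arrays left out its difference was -1.28 to -0.95.

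**Figure D2:**
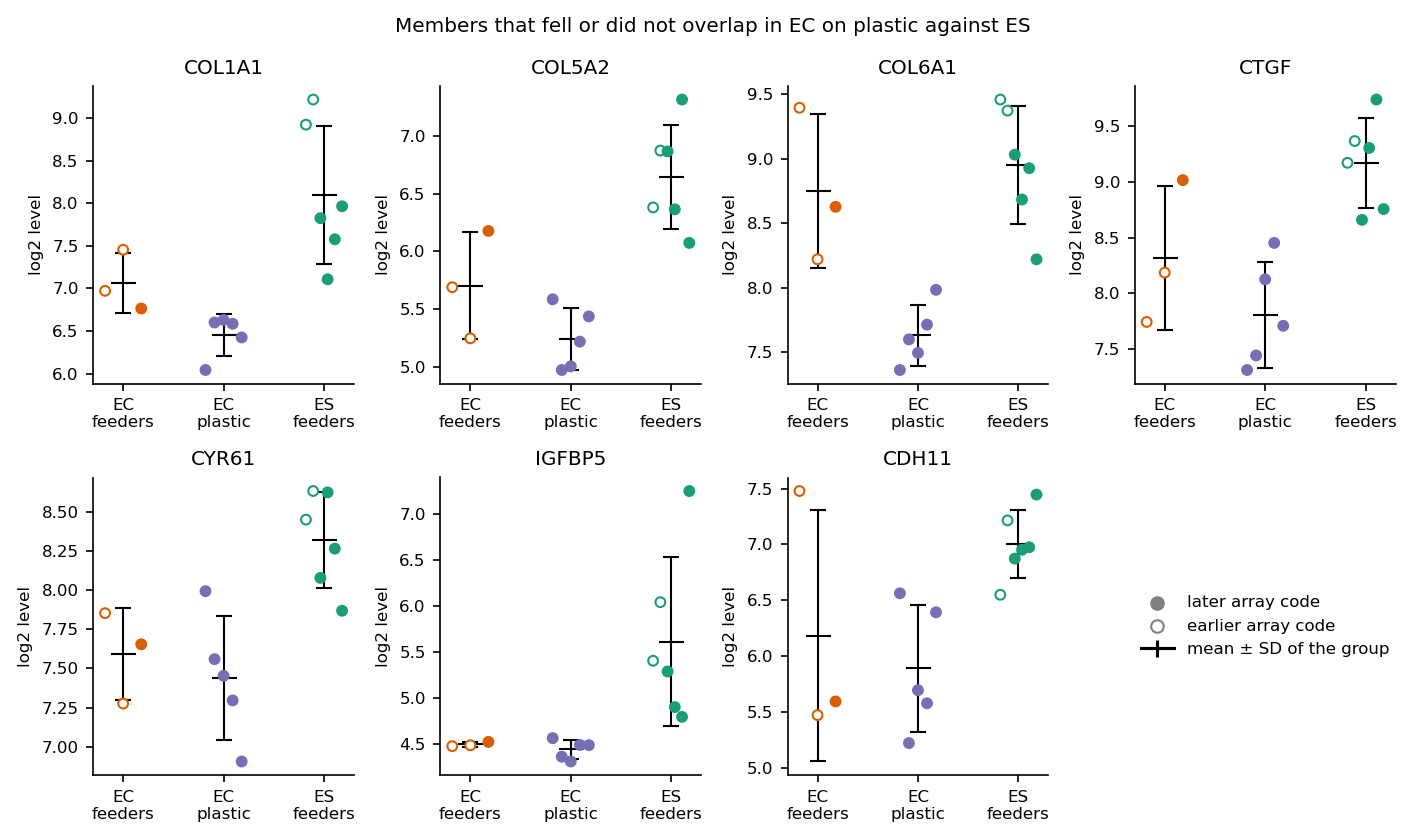
Log2 level (vertical axis) of 7 member clusters in each array of EC on feeders, EC on plastic and ES, with open points for earlier-coded and filled points for later-coded arrays and bars for the mean ± SD of a group (n = 3, 5 and 6). EC lines on plastic lie below all ES lines in COL1A1, COL5A2, COL6A1, CTGF and IGFBP5, and meet the lower ES values in CYR61 and CDH11.

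Several members had differences as large as these with a spread between EC lines too wide for a call. FN1 differed by -1.74 (adjusted p = 0.0867), MMP2 by -1.65 (0.0871), and vimentin, the intermediate filament protein of mesenchymal cells (VIM), by -1.52 (0.146). Without NTERA2 on plastic, limma called both FN1 clusters (-2.07 and -1.0, adjusted p = 0.0393 and 0.0100) and MMP2 (-1.98, adjusted p = 0.0365). Without NCCIT, whose VIM level of 9.83 was the highest of the EC lines on plastic, VIM differed by -1.96 (adjusted p = 0.0355). EC on plastic lay wholly below ES in 7 of the 33 clusters and wholly above in 0, where 1.52% and 2.85% of all clusters did so. Members without a lower level included SPARC, a collagen-binding glycoprotein, at 10.05 ± 1.21 in EC on plastic (SD, n = 5) and 9.85 ± 0.50 in ES (SD, n = 6). The metalloproteinase inhibitor TIMP1 differed by 0.45 (adjusted p = 0.76), with 7.50 in NCCIT and 10.71 in TERA1 as its lowest and highest level in EC on plastic, against 7.86 and 10.49 in ES.

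At the level of probesets the lower values ran along the whole gene in some members and not in others. Every probeset of COL5A2, COL6A1 and CTGF and 59 of 60 of COL1A1 had a negative difference. The same held for members without a gene-level call, among them COL1A2 (58 of 58), COL6A2 (42 of 42), VIM (21 of 21) and MMP2 (18 of 18). SPARC and TIMP1, whose gene-level differences were positive (0.20 and 0.45), had 2 of 18 and 0 of 9 negative. Of the 935 member probesets, 100 were lower and 0 higher in EC on plastic by limma, where 0.745% and 2.07% of all probesets were, and 819 had a negative difference. At an unadjusted p under 0.05, 2 member probesets were higher, where 11.3% of all probesets were. COL1A1 had 31 lower of 60 probesets (largest difference -3.15, probeset 3762238) and COL5A2 31 of 60 (-2.92, probeset 2591727). COL6A1 had 16 of 34 (-2.34), CTGF 5 of 10 (-2.18), COL5A1 5 of 70 (-1.75) and CDH11 4 of 22 (-1.85). COL3A1 had 2 of 63 (-2.68) and FN1 2 of 68 (-1.87), and COL6A3 (-2.01), MMP2 (-1.65), CYR61 (-1.03) and IGFBP5 (-2.22) had 1 each. The other 20 genes had none. With the later-coded arrays alone 25 member probesets were lower. Leaving out single arrays moved the 100 to 47 without 2102Ep, 55 without 833KE, 56 without H14, 55 without Shef5 and 63 without Shef6.

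Exon usage, the difference of a probeset from the other probesets of its gene, was tested with limma's diffSplice in the 11 member genes bright enough in both groups. It called 0 of 298 member probesets in EC on plastic against ES, where 0.157% of all tested probesets were called; 17 had an unadjusted p under 0.05. The smallest p belonged to CTGF probeset 2974347 (1.00, limma adjusted p = 0.258) and COL6A1 probeset 3924401 (1.19, adjusted p = 0.317). The exons that hold these probesets were not analysed here.

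**Figure D3:**
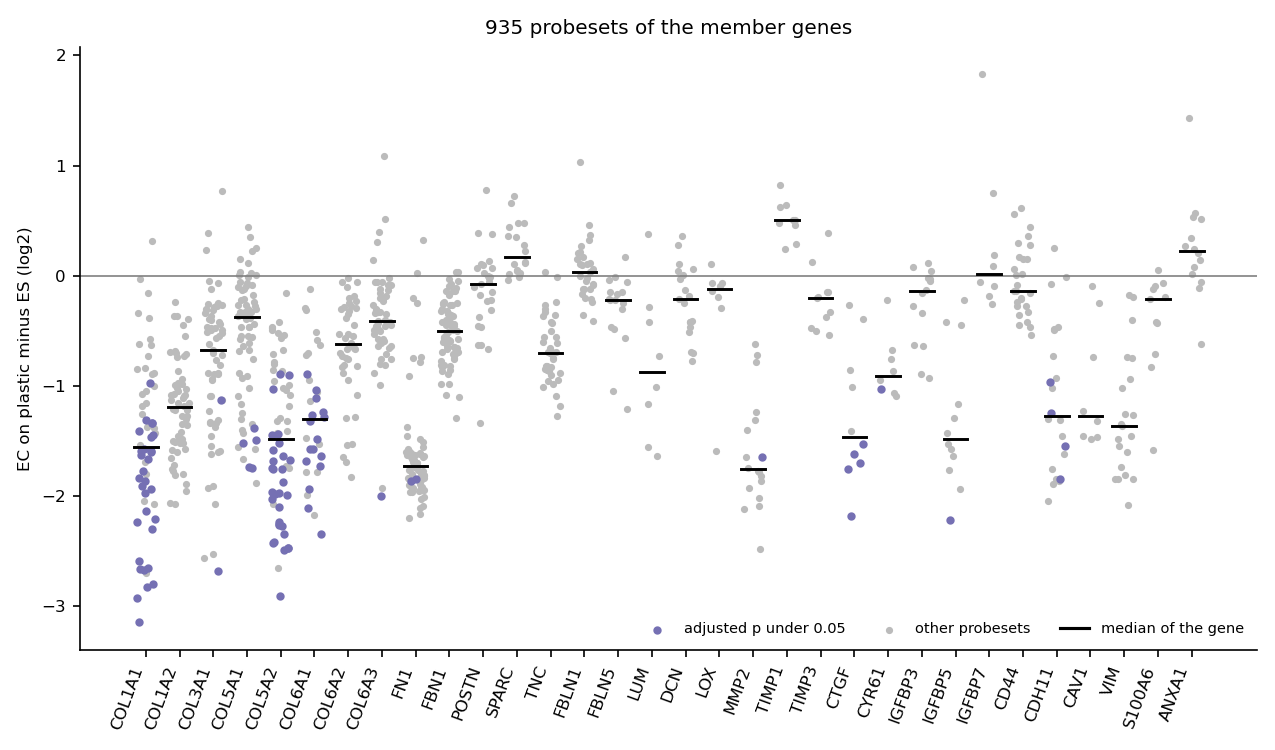
Log2 difference, EC on plastic minus ES (vertical axis), of each of the 935 probesets of the 32 member genes (horizontal axis), with probesets of adjusted p under 0.05 in purple, others in grey and the median of each gene as a bar. In COL1A1 and COL5A2 31 of 60 probesets each were lower, while no probeset of any member was called higher.

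The second comparison set EC lines on feeders against ES lines, with both in 1 growth condition. It shares the ES arrays with the first, so the results of both are not independent. With limma 0 of the 33 member clusters passed, where 2.29% of all clusters did (1.56% higher and 0.731% lower). Over all clusters the deposited values gave 343 higher and 161 lower calls here, and quantile normalisation 334 and 245. At an unadjusted p under 0.05, 4 members were higher and 7 lower, where 11.3% and 6.32% of all clusters were. The median member difference was -0.16 and 20 of 33 were negative.

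The levels on feeders of the genes described above were closer to ES for some and not for others. COL6A1 stood at 9.40 in NTERA2, 8.22 in 2102Ep and 8.63 in 833KE on feeders, inside the ES range of 8.22 to 9.46, and differed by -0.20 (SE 0.32, adjusted p = 0.811). COL1A1 stood at 6.97 in NTERA2, 7.45 in 2102Ep and 6.76 in 833KE, of which 2102Ep alone was above the lowest ES line (7.11), and differed by -1.04 (SE 0.43, adjusted p = 0.244). With the array code as a term COL1A1 was the 1 member called (-1.41, limma adjusted p = 0.0379).

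COL5A2 stood at 5.69 in NTERA2, 5.25 in 2102Ep and 6.18 in 833KE on feeders, with 833KE alone above the lowest ES line (6.07), and differed by -0.94 (SE 0.29, adjusted p = 0.128). CTGF stood at 7.74, 8.19 and 9.02 in the same order of lines, with 833KE alone within the ES range of 8.66 to 9.74, and differed by -0.85 (SE 0.31, adjusted p = 0.184). CYR61 stood at 7.85, 7.28 and 7.65, all below the lowest ES level of 7.87, and differed by -0.73 (SE 0.21, adjusted p = 0.11). IGFBP5 had 4.47, 4.48 and 4.52 on feeders, again below every ES line, with a difference of -1.12 (SE 0.47, adjusted p = 0.248). EC on feeders lay wholly below ES in 3 members, CYR61, IGFBP5 and the dim POSTN, and wholly above in 0, where 3.08% and 5.78% of all clusters did so.

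CDH11 split the EC lines, with 7.48 in NTERA2, above all ES lines, and 5.47 in 2102Ep and 5.59 in 833KE, below them. Its difference was -0.82 (adjusted p = 0.321), and without NTERA2 it was -1.47 (limma adjusted p = 0.0133). The members with the largest positive differences were TIMP1 (1.56, adjusted p = 0.227), the adhesion-modulating glycoprotein TNC (1.10, adjusted p = 0.406), SPARC (0.87, 0.208) and the fibulin FBLN1 (0.87, 0.25). Among later-coded arrays, where 833KE is the 1 EC array and is assumed to vary like the ES lines, IGFBP7 (1.62, limma adjusted p = 0.0368) and ANXA1 (2.80, adjusted p = 0.0333) were called higher.

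At probeset level 1 of 935 was higher and 4 lower in EC on feeders by limma, where 0.61% and 0.344% of all probesets were. The higher one was IGFBP7 probeset 2770473, with 6.89 in NTERA2, 5.13 in 2102Ep and 7.34 in 833KE on feeders, against 2.02 to 4.83 in ES (difference 3.53, limma adjusted p = 0.0336). The same probeset stood at 7.46 in TERA1 on plastic and at 3.30 to 4.93 in the other 4 EC lines on plastic. The lower ones lay in COL1A1 (-1.70), COL3A1 (-2.11) and COL5A2 (-2.37 and -2.15). Exon usage called 0 of 461 member probesets, where 0.0559% of all tested were called, and 4 had an unadjusted p under 0.05. The smallest p belonged to COL1A1 probesets 3762259 (1.20) and 3762265 (1.15), both with a limma adjusted p of 1.

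The third comparison asked what growth on feeders and in the ES medium changed in the same 3 EC lines, so feeder cells and medium cannot be told apart. No call was made here. With limma and the line as a block, 0 members and 0% of all clusters passed; at an unadjusted p under 0.05, 11 members were higher and 0 lower, where 7.02% and 7.86% of all clusters were. The median member difference was 0.51, against 0.0222 over all clusters, and 30 of 33 were positive. In 19 members the feeder array was higher in all 3 lines, where 20.6% of all clusters were, and POSTN alone was lower in all 3 lines, where 18.1% of all clusters were. In 8 members every feeder array was higher than every plastic array of the same lines (7.35% of all clusters), and in POSTN every feeder array was lower (6.88%).

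TNC had the smallest p of the members. It stood at 10.17 in NTERA2, 6.93 in 2102Ep and 7.64 in 833KE on feeders, against 8.24, 5.48 and 5.84 in the same lines on plastic. Each line was higher on feeders, by 1.93, 1.45 and 1.80, although NTERA2 on plastic was above the feeder arrays of both other lines (mean difference 1.73, SE 0.18, unadjusted p = 0.000152, limma adjusted p = 0.169). COL6A1 was higher on feeders by 1.41 in NTERA2, 0.62 in 2102Ep and 1.13 in 833KE, without overlap between the conditions (mean 1.06, adjusted p = 0.237). VIM differed by 1.63, 1.25 and 0.82 in the same order of lines (mean 1.23, adjusted p = 0.237).

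The elastic-fibre protein FBN1 differed by 0.82, 1.02 and 0.67 (mean 0.84), FN1 (cluster 2598261) by 0.54, 0.70 and 1.06 (mean 0.76) and COL6A2 by 0.92, 0.57 and 0.69 (mean 0.72), in NTERA2, 2102Ep and 833KE. The other FN1 cluster (2526806) was lower on feeders in NTERA2, with -0.53, 0.45 and 0.83 in the same order of lines (mean 0.25). Other members varied more between the lines. CAV1, the coat protein of caveolae, differed by 3.17 in NTERA2, by 0.14 in 2102Ep and by 0.58 in 833KE. MMP2 differed by 2.80, 1.19 and -0.17 in that order. CYR61 differed by 0.95, -0.28 and 0.20, and its mean of 0.29 was -0.0411 without NTERA2.

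The 3 lines were not alike in code: NTERA2 and 2102Ep had an earlier-coded feeder array and a later-coded plastic array, and both arrays of 833KE were later-coded. The median member difference was 0.64 in NTERA2 (27 of 33 positive), 0.40 in 2102Ep (29 positive) and 0.27 in 833KE (24 positive), where 51.6%, 53.4% and 50.5% of all clusters were positive. With the code as a term, which leaves 833KE to carry the difference, the median was 0.27. Within the ES lines, all on feeders, the members also moved with the code: the median member was 0.48 higher in H14 and Shef5 than in the 4 later-coded lines (28 of 33 positive), against 0.0491 over all clusters. H14 and Shef5 were both above all 4 later-coded ES lines in 15 of 33 members, where 19.5% of all clusters were. What part the code has in the difference between growth conditions was not tested beyond these values. The 10 fibroblast markers outside the list had a median difference of 0.11 on feeders against plastic, 7 of them positive, and none passed. Their largest difference was that of the collagen receptor DDR2 (2.01, limma adjusted p = 0.265), followed by PDGFRB (0.81, adjusted p = 0.25), while MFAP5 (-0.23), TWIST1 (-0.13) and COL12A1 (-0.03) were negative. DDR2 stood at 4.53 in NTERA2, 7.67 in 2102Ep and 8.87 in 833KE on feeders, against 4.16, 4.75 and 6.14 in the same lines on plastic and 4.56 to 4.90 in ES on the same feeders.

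**Figure D4:**
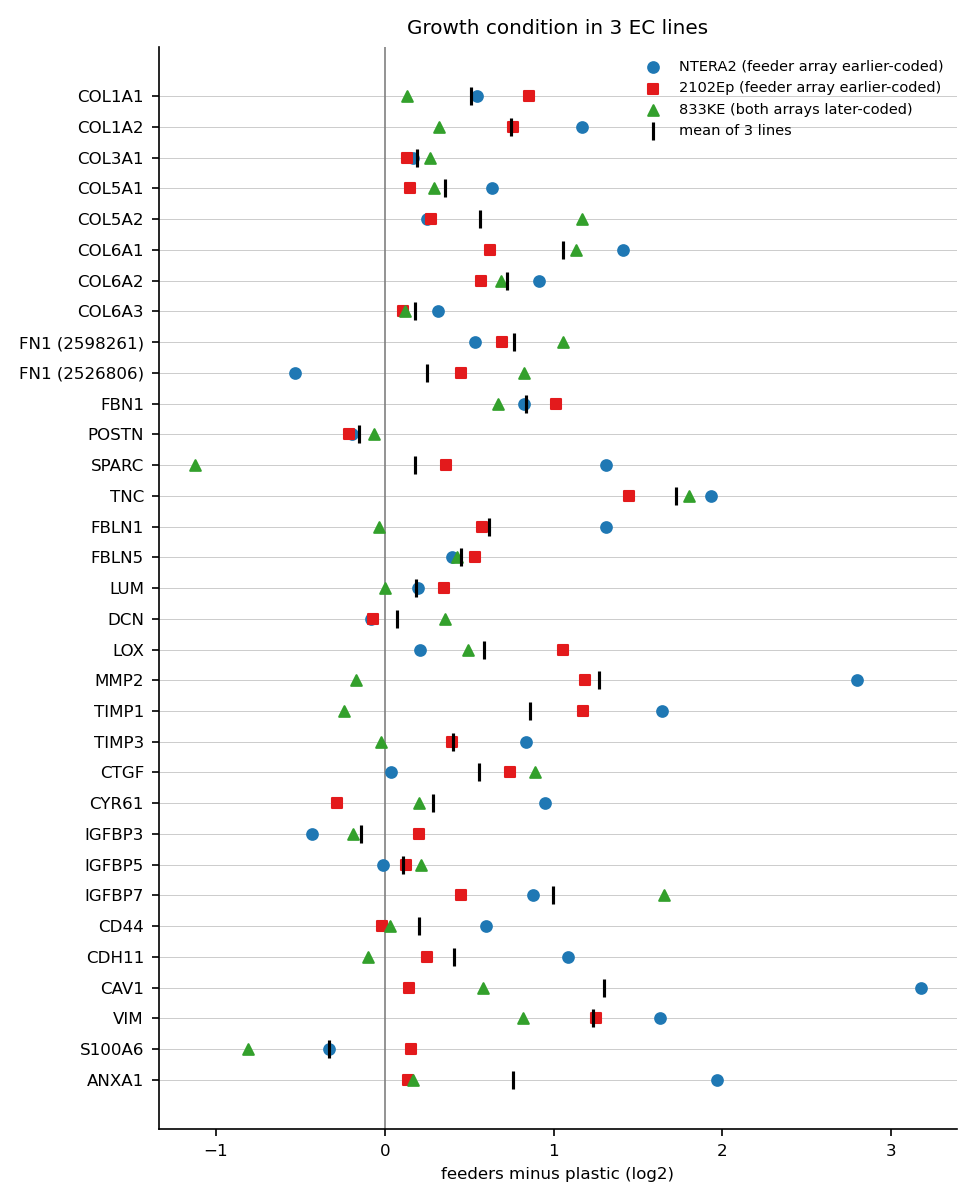
Log2 level on feeders minus that on plastic (horizontal axis) of each member cluster in NTERA2, 2102Ep and 833KE, with the mean of the 3 lines as a black bar. Most points lie right of 0 (27, 29 and 24 of 33), TNC lies between 1.45 and 1.93 in all 3 lines, and SPARC runs from -1.12 in 833KE to 1.31 in NTERA2.

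No member probeset passed between growth conditions by limma (0% of all probesets); at an unadjusted p under 0.05, 287 were higher and 14 lower, where 5.45% and 7.27% of all probesets were. Exon usage did give calls here, in 6 of 354 member probesets, where 0.347% of all tested were called. In COL6A2 the probesets 3924470 (1.51, limma adjusted p = 0.00515), 3924471 (1.49, 0.00551) and 3924490 (1.22, 0.0361) differed more than the rest of the gene and probeset 3924493 less (-1.18, 0.0460). One probeset each differed less than its gene in VIM (3236971, -1.42, adjusted p = 0.0417) and COL1A2 (3013093, -1.50, 0.0426). These are differences relative to the other probesets of the gene on feeders against plastic, and not levels. The 6 calls come from a single fit. They were not rechecked with the array code, which partly follows the growth condition in these lines. Nor were they rechecked with single lines left out or with a stricter filter on brightness. How far they depend on the code or on a single line was not tested.

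Other genes of the same systems were read from 7 lists, with the same fits. Over all clusters 1.34% were lower and 3.26% higher in EC on plastic against ES. In EC on feeders against ES 0.731% were lower and 1.56% higher. These shares are the background for the calls in every list. Of 11 measured genes of the YAP and TEAD pathway, the route that CTGF and CYR61 report on, 6 fell and 1 rose in EC on plastic against ES (median -1.10), with the backgrounds given above. ANKRD1, a target gene, averaged 4.07 ± 0.22 in EC on plastic (SD, n = 5) and 6.11 ± 0.53 in ES (SD, n = 6), with a difference of -2.04 (limma adjusted p = 0.00117). All its levels in EC on plastic (3.80 to 4.37) lay below the 25th percentile of cluster means (4.58). AJUBA, an adaptor that restrains LATS kinases, differed by -1.85 (adjusted p = 0.000404), the receptor kinase AXL by -1.81 (0.00371) and the transcription factor TEAD2 by -1.12 (0.00646). The coactivator TAZ (WWTR1) was the 1 gene that rose (0.91, adjusted p = 0.0087), and its partner YAP1 differed by -0.57 (0.143). In EC on feeders against ES, AJUBA (-1.38, adjusted p = 0.0147), AXL (-1.10, 0.0214) and TEAD1 (-1.75, 0.0263) fell, and WWTR1 (0.94, 0.0276) and TEAD4 (1.63, 0.0267) rose.

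**Figure D5:**
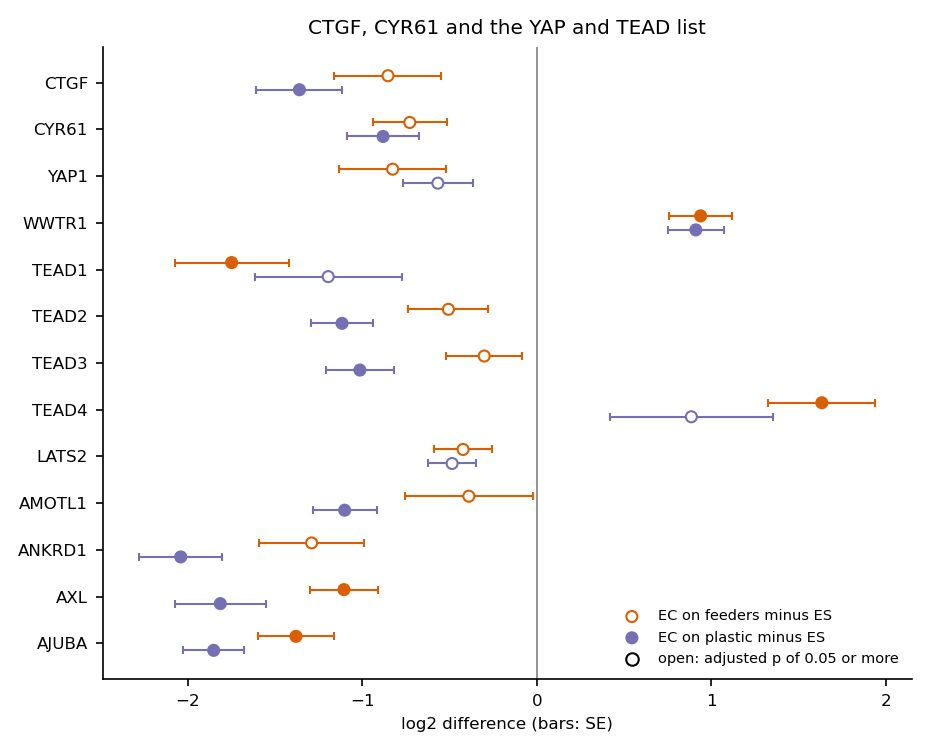
Log2 differences (horizontal axis, bars SE) of CTGF, CYR61 and 11 genes of the YAP and TEAD list, EC on feeders minus ES in orange and EC on plastic minus ES in purple, filled where the adjusted p is under 0.05. AJUBA and AXL fell and WWTR1 rose in both comparisons, while CTGF and CYR61 passed only in EC on plastic against ES, a contrast between comparisons that was not itself tested.

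Among 20 measured genes of collagen processing and cross-linking, 2 fell in EC on plastic against ES and 0 rose, where 1.34% and 3.26% of all clusters did. The 2 were the prolyl hydroxylase P3H2 (-1.64, limma adjusted p = 0.00622) and the collagen chaperone FKBP10 (-1.26, 0.0248). The list's median was 0.006. In the basement membrane list 3 of 12 fell, namely the type IV collagens COL4A1 (-1.46, adjusted p = 0.0101) and COL4A6 (-0.98, 0.0347) and the laminin chain LAMA1 (-1.06, 0.0332). Of 18 matrix receptors 3 fell, the fibronectin receptor chain ITGA5 (-1.28, adjusted p = 0.0277), the collagen receptor DDR1 (-1.13, 0.00916) and the syndecan SDC1 (-0.89, 0.0188), and ITGA9 rose (1.17, 0.0121). Of 17 genes of the TGF-beta pathway, THBS1, which activates the latent ligand (-1.40, adjusted p = 0.016), and TGFB2, a ligand (-0.70, 0.0274), fell and the coreceptor TGFBR3 rose (1.43, 0.0478). None of 10 genes in the list of mesenchymal transition factors and none of 10 epithelial genes passed. After quantile normalisation 1 gene in each of these 2 lists did. N-cadherin (CDH2), an adhesion protein placed in the first of these lists, came nearest at -2.70 (limma adjusted p = 0.0527). Its level in NCCIT was 9.80, inside the ES range of 8.80 to 10.30. TCF21 followed in that list (-0.28, adjusted p = 0.272), and CLDN3 (-0.47, 0.0648) and KRT19 (-1.08, 0.0881) led the epithelial list.

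In EC on feeders against ES, CDH2 fell, at 8.20 in NTERA2, 6.25 in 2102Ep and 6.28 in 833KE on feeders, against 8.80 to 10.30 in ES (difference -2.90, limma adjusted p = 0.0147). COL4A6 (-0.99, adjusted p = 0.0491) and THBS1 (-1.43, 0.0119) fell there too, though no basement membrane gene passed after quantile normalisation, and ITGA9 (1.62, 0.0123) and TGFBR3 (1.36, 0.0313) rose. None of the collagen processing or epithelial genes passed in that comparison, where SERPINH1, the collagen chaperone HSP47 (0.81, adjusted p = 0.0712), and P3H2 (-1.26, 0.0847) had the smallest p of the processing list, and KRT18 (0.53, 0.253) and CLDN3 (-0.37, 0.27) of the epithelial list. Between growth conditions no gene of any list passed by limma. The smallest p values there included those of the neighbouring basement membrane genes COL4A2 (1.02 higher on feeders) and COL4A1 (1.07), each with a limma adjusted p of 0.237. They also included genes lower on feeders, such as TGFBR1 (-0.88, limma adjusted p = 0.237) and ITGA2 (-0.92, 0.242).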

How the data were processed

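Values were log2 RMA summaries deposited by the authors for transcript clusters and probesets of human exon arrays, made per the submitters' processing notes with RMA and Affymetrix Expression Console; limma is named there too. Versions, RMA settings, log base and annotation release are not given in the sources used here; a log2 scale was inferred from how far the values reach. Nothing was transformed or filtered before the fits. Differences were fitted with limma 3.58.1 in R 4.3.3 (lmFit, eBayes, two-sided) over all clusters or probesets, with Benjamini-Hochberg adjustment and a threshold of 0.05. EC on plastic (n = 5) and EC on feeders (n = 3) were each set against ES (n = 6). Feeders and plastic were compared in 3 lines with the line as a block. Titles give the line, and own-line arrays correlated in their deviations from the condition means with r of 0.51 (NTERA2), 0.41 (2102Ep) and 0.34 (833KE). For exon usage (diffSplice), both group means of a probeset had to exceed the 25th percentile of all values, those of its gene the median, 3 such probesets were needed, and a call also took a difference of at least 1. The fits were tested on simulated data with 2 settings of noise; they recovered the size of known differences in each. Between growth conditions the first setting gave no calls, while the second, with moderated variances and added after that result, recovered most of the larger differences and a minority of the smaller ones, so what the absence of calls there means depends on the noise assumed. Symbols came from the platform annotation, updated through RefSeq. Values in every array are given for members called in a gene-level comparison, or without overlap and at least 1 apart. For the lists up to 4 called genes are named, or the 2 with the smallest p; WWTR1, TEAD1, TEAD4 and ITGA9, and members named for a wide spread or a single-line difference, were partly chosen after their values were seen. Members and lists were chosen with earlier results of these data known. No detection p-values entered the work, so how far a signal exceeds background is not known, and precision is set by the count of arrays. Alternatives were quantile normalisation, leaving out dim features, all 14 arrays in 1 fit, the array code, probeset means and each array left out. No column was left out. Figures were drawn with matplotlib 3.10.9.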

Additional observations from a re-analysis of the deposited data

Results flagged for a closer look

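Within 66 groups of EC on plastic or ES values, 7 had 1 array far from the others, where chance gives about 1 in 20. Among ES lines the array was Shef5 each time, with the highest COL3A1 (6.89, others 5.14 to 5.79), LUM (4.48, others 1.63 to 2.53), DCN (3.13, others 2.14 to 2.35) and IGFBP3 (7.32, others 6.28 to 6.66). LUM and DCN encode small leucine-rich proteoglycans of collagen fibrils. Both are dim here, as is POSTN below, and Shef5 is an earlier-coded array. Flags that share an array are not independent of each other. The fibroblast markers outside the list had a mean level of 5.23 in Shef5, against 4.91 to 5.21 in the other ES lines. The 5 early endoderm markers had 6.73 in Shef5, against 5.90 to 6.47. Among them AFP was at 4.84 in Shef5, against 2.35 to 3.80, and GATA6 was also above H14 (7.35 against 7.13). H14 was above Shef5 for SOX17 (7.68 against 7.31), FOXA2 (7.38 against 6.94) and, narrowly, GATA4 (7.24 against 7.22). The part of either list in these values was not tested. Among EC lines on plastic, TERA1 stood highest for POSTN (4.15, others 2.87 to 3.10) and IGFBP7 (7.66, others 6.03 to 6.35), and NCCIT lowest for TIMP3 (5.12, others 6.41 to 6.52).

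In 7 of 33 members 833KE moved opposite to both other lines between feeders and plastic, as did 25.5% of all clusters. The difference between the lines was not tested. SPARC was lower on feeders in 833KE (-1.12) and higher in 2102Ep (0.36) and NTERA2 (1.31). MMP2 was at -0.17 in 833KE, 1.19 in 2102Ep and 2.80 in NTERA2, and TIMP1 at -0.24, 1.17 and 1.64 in the same order. FBLN1 (-0.0315 in 833KE), TIMP3 (-0.0244) and CDH11 (-0.10) had small negative values in 833KE and positive ones in the other lines, and DCN had 0.36 in 833KE, -0.0668 in 2102Ep and -0.0808 in NTERA2. In 6 of the 33 members (18.2%) both other lines were higher on feeders and 833KE lower, beside 14% of all clusters with that pattern.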

How the results depend on the processing

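In EC on plastic against ES the count of 6 lower member clusters was 3 among later-coded arrays and 4 to 8 with single arrays left out. The median of all 33 members (-0.73) was -0.51 among later-coded arrays or with the code as a term. With single arrays left out it was -0.76 to -0.52. The 100 lower probesets were 25 among later-coded arrays and 47 to 141 with single arrays left out. The 19 called genes of the other lists were 12 among later-coded arrays. In EC on feeders against ES, 1 member was lower with the code as a term and 2 were higher among later-coded arrays, and 0 to 1 were lower with single arrays left out. The median there (-0.16) was -0.45 among earlier-coded arrays and -0.27 to 0.0220 with single arrays left out. The 1 higher probeset was 0 without dim probesets and 0 to 1 with single arrays left out, and the 4 lower ones 0 to 8. COL6A1 differed there by -0.53 to 0.0623 with single arrays left out, the highest without 2102Ep. Between growth conditions the median (0.51) was 0.27 with the code as a term or in 833KE alone and 0.36 to 0.62 with single lines left out. CDH11 was at -0.10 with the code as a term and CYR61 at -0.0411 to 0.58 with single lines left out, the lowest without NTERA2. With no replicate block for the line the median stayed 0.51 with 0 calls at either level. The causes were not tested.

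The number of arrays limits the precision, each group holds different lines, and both EC groups share lines. The codes split ES and EC on feeders but not EC on plastic, which is later-coded throughout.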
